A study of Mus musculus with 2 samples.

Results

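Nuclei that carried the PVH hashtag were compared with nuclei that carried the ARC hashtag in single-nucleus RNA sequencing of the mouse hypothalamus. A hashtag is an antibody against nuclear pore proteins that bears a DNA barcode, so that nuclei stained separately can be pooled and told apart by their barcode counts. Of 11409 barcodes in the matrix, 10170 passed the filters, which required over 800 but under 5000 detected genes, no more than 12000 UMIs (unique molecular identifiers, the tags by which captured RNA molecules are counted) and a mitochondrial share of no more than 1%. A nucleus was placed in the ARC group when its ARC hashtag UMIs were at least 0.8 times its PVH hashtag UMIs, and in the PVH group when they were at most 0.5 times. This gave 4395 ARC-hashtag and 3743 PVH-hashtag nuclei, 8138 in all, and left 2032 nuclei between the thresholds.

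The nuclei came from untreated male C57BL/6J mice aged 10 to 12 weeks, pooled, in both groups, and were sorted for NeuN, an antigen of neuronal nuclei, before capture with 10x Genomics Chromium v3 chemistry. The labels name the tissue as the arcuate nucleus (ARC) for both libraries, and PVH occurs only as the name of a hashtag. PVH is commonly short for the paraventricular nucleus of the hypothalamus, but the sources used here do not spell it out or describe how tissue was divided between the hashtags. There was 1 pooled gene expression library, so nuclei are not replicates, the hashtags do not identify mice, and no test between the groups was possible.

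The arcuate nucleus lies at the base of the hypothalamus beside the median eminence and holds the Agrp and Pomc neurons that sense leptin and drive or restrain feeding. The paraventricular nucleus lies above it around the dorsal part of the ventricle and receives their projections. Its neurons develop under the bHLH-PAS factor Sim1 and include the oxytocin, vasopressin, corticotropin-releasing and thyrotropin-releasing hormone cells.

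The genes with the largest ratios included regulators such as Sim1, Ebf1 and Tbx3, beside receptors, a protease and non-coding loci. Start windows are shown for Sim1, the PVH marker of the comparison, and for Zic1 and Tbx3os1, each of which overlaps another called gene on the opposite strand. They run from 250 bases before to 50 bases after a transcription start in RefSeq (build GRCm38.p6), on the strand of the gene. Capitals mark ACGTG, the core that bHLH-PAS dimers bind, on either strand, and the window of Zic1 holds it on both strands in 1 overlapping run, while those of Sim1 and Tbx3os1 do not hold these letters. GGTGTGA, the core of a T-box element, was searched on both strands too and none of the 3 windows holds it. A window at the second start of Ebf1, not printed, holds both. ACGTG occurs in 19.6% and GGTGTGA in 3.98% of 32851 such windows, and the counts of RNA measured here do not bear on binding.
Sim1 (chr10:50895401-50895700, + strand): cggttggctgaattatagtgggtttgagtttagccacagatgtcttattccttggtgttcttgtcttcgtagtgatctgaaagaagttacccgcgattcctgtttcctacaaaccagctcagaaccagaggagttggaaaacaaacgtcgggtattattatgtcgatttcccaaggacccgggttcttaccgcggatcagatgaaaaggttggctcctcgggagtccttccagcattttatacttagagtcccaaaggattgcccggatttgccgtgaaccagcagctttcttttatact
Zic1 (chr9:91365719-91366018, - strand): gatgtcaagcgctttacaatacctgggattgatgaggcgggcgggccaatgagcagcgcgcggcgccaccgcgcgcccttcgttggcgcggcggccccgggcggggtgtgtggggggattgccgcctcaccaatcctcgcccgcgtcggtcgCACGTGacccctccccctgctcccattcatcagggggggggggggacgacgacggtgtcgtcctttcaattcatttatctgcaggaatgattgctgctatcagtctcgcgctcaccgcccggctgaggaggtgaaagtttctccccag
Tbx3os1 (chr5:119671459-119671758, - strand): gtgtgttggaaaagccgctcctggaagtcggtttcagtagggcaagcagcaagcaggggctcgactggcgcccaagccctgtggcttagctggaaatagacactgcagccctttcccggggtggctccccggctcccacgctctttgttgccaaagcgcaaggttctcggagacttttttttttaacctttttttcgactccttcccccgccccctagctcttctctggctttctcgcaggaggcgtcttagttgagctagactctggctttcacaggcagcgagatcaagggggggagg

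Both groups were sequenced to a like depth. The ARC group held 22385907 UMIs, and its median nucleus had 4774 UMIs from 2637 genes. The PVH group held 19305883 UMIs, with 4816 UMIs from 2610 genes in the median nucleus. The hashtags themselves were less well separated. The median nucleus of the ARC group had 93 ARC and 76 PVH hashtag UMIs, and that of the PVH group 47 and 122, so every group carried both barcodes in number. The median ratio of ARC to PVH hashtag UMIs was 1.24 in the ARC group, 0.382 in the PVH group and 0.602 in the nuclei between them. HTODemux, the demultiplexing function of Seurat, was run at a positive quantile of 0.8. It called 83.3% of the ARC group as ARC and 74.5% of the PVH group as PVH. It called 479 ARC-group and 787 PVH-group nuclei negative for both hashtags, and no nucleus of either group as the other hashtag. At a quantile of 0.99, 71.8% of the ARC group and 89.6% of the PVH group were called negative. HTODemux reads the same hashtag UMIs as the ratio rule, so these calls are not an independent check of the groups.

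**Figure D1:**
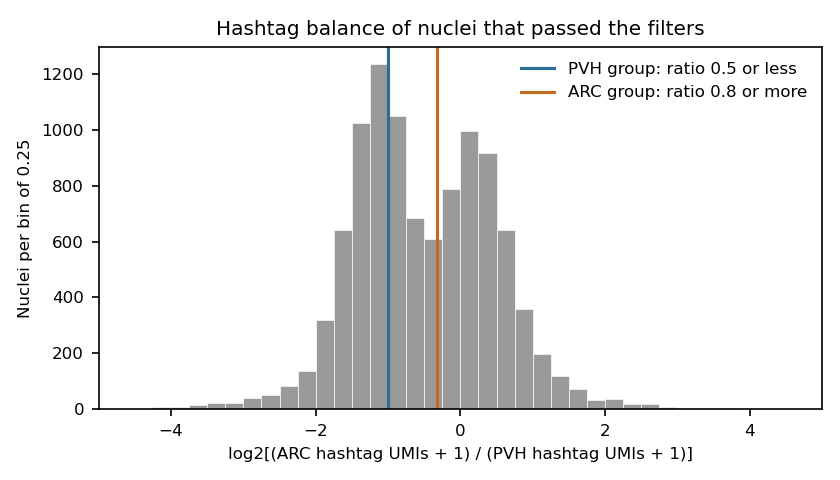
Histogram of the log2 ratio of ARC to PVH hashtag UMIs, with 1 added to each, in the 10170 nuclei that passed the filters, in bins of 0.25 on the log2 scale. Vertical lines mark the 2 thresholds, and the tallest bins on either side, with 1235 and 997 nuclei, are separated by a shallow dip of 609.

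Most genes were at nearly the same level in both groups, and a small set differed widely. Levels are summed UMIs of a gene per 1000000 UMIs of the group (CPM), ratios are PVH over ARC, and a gene was called when the levels differed by 2-fold or more and the groups together held at least 50 UMIs. The intervals given are exact 95% intervals and cover counting error only. Of 16222 genes with enough UMIs, 337 (2.08%) were higher with the PVH hashtag and 272 (1.68%) higher with the ARC hashtag. Of these, 67 and 44 passed 4-fold. The 2.08% and 1.68% are the shares over all genes to set beside the counts in each list below. With stricter hashtag thresholds the order turned, with 197 genes higher with the PVH hashtag and 259 with the ARC hashtag, of 12508. The median log2 ratio was -0.04, and the middle 95% of genes lay between -0.84 and 0.91.

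**Figure D2:**
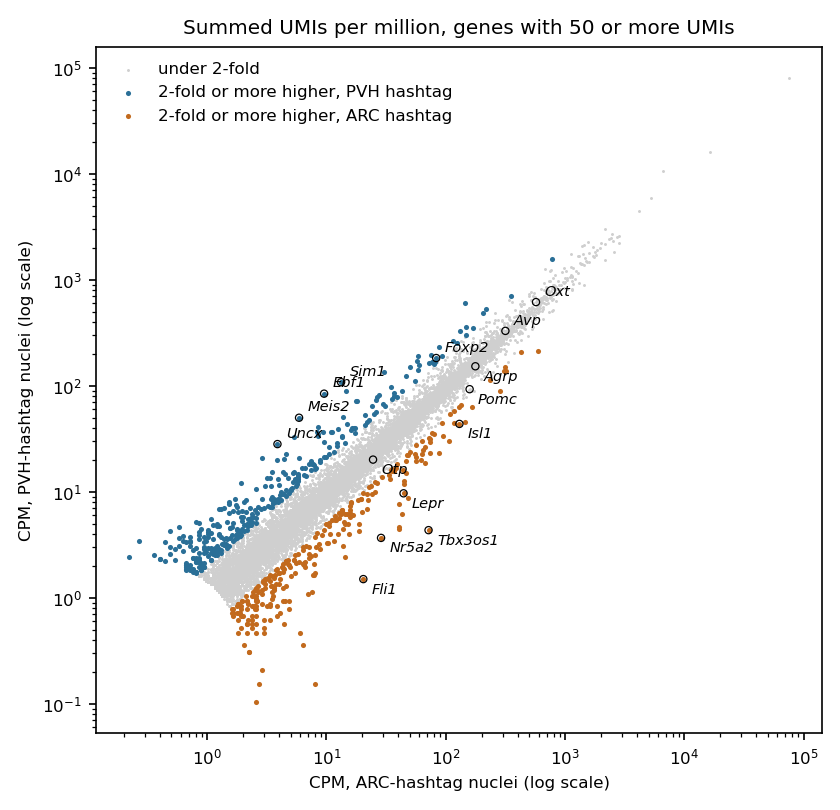
Level of each gene in ARC-hashtag nuclei (horizontal, CPM, log scale) against PVH-hashtag nuclei (vertical, CPM, log scale) for genes with at least 50 UMIs, each point 1 gene, leaving out 1 called gene with no UMI in a group. Blue marks the 337 genes 2-fold or more higher with the PVH hashtag and orange the 272 higher with the ARC hashtag, and Oxt, Avp and Agrp sit near the diagonal.

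The 4 markers of the comparison split into a regulator and a receptor that differed strongly and a pair of peptide genes that did not. Sim1 (chr10:50894754-50989152, GRCm38, GENCODE M21), required for the formation of paraventricular neurons, was at 108 CPM in PVH-hashtag nuclei (interval 104 to 113) and 13.3 CPM in ARC-hashtag nuclei (11.8 to 14.9). That is a log2 ratio of 3.03 (2.85 to 3.21), or 8.17-fold. A Sim1 UMI was found in 27.5% of PVH-hashtag and 3.78% of ARC-hashtag nuclei, and in 9.03% and 0.91% after every nucleus was thinned to 1000 UMIs. Lepr (chr4:101717404-101815352), the leptin receptor, ran the other way, at 44.3 CPM with the ARC hashtag (41.6 to 47.1) and 9.69 with the PVH hashtag (8.35 to 11.2), a log2 ratio of -2.19. Lepr UMIs were found in 15.4% and 4.09% of nuclei. Agrp, the melanocortin antagonist peptide, was at 177 CPM with the ARC hashtag and 153 with the PVH hashtag, a log2 ratio of -0.21. Pomc, the precursor of the melanocortin agonists, was at 158 and 93.1 CPM, a log2 ratio of -0.77. The hashtag names thus went with the levels of Sim1 and Lepr, while Agrp and Pomc did not pass 2-fold in this grouping. Pomc did pass it with stricter hashtag thresholds (-1.41), with HTODemux at a quantile of 0.99 (-1.125) and within Slc17a6 nuclei (-1.07).

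Of 8 listed transcription factors of the paraventricular nucleus, 6 had enough UMIs. Among these, 4 were higher with the PVH hashtag and none with the ARC hashtag, beside 2.08% and 1.68% of all genes. Their median log2 ratio was 1.78, beside -0.04 over all genes. Sim2, the paralog of Sim1, was at 8.495 against 1.70 CPM (log2 ratio 2.32, interval 1.81 to 2.87). Pou3f2, a POU-domain factor that acts below Sim1 in neuroendocrine neurons, was at 40.8 against 8.44 CPM (2.27, 2.04 to 2.51). Pou3f4 was at 3.94 against 1.61 CPM (1.29). Arnt2, the dimer partner of Sim1, was at 159 against 98.5 CPM and did not reach 2-fold (0.69). Otp, a homeobox factor of several neuroendocrine lineages, was at 20.2 CPM with the PVH hashtag and 24.6 with the ARC hashtag (-0.29). Pou3f1 and Pou3f3 had too few UMIs to be compared.

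The neuropeptides of the paraventricular nucleus did not follow its regulators. Of 11 listed, 10 had enough UMIs and none was called in either direction, beside 2.08% (PVH) and 1.68% (ARC) of all genes. Their median log2 ratio was 0.04. Oxt, which encodes oxytocin, was at 618 CPM with the PVH hashtag and 570 with the ARC hashtag (log2 ratio 0.12, interval 0.08 to 0.15), and Avp, which encodes vasopressin, at 330 and 316 CPM (0.06). Crh was at 4.20 and 3.35 CPM and Trh at 33.4 and 27.3 CPM. An Oxt UMI was present in 89.5% of PVH-hashtag and 90.4% of ARC-hashtag nuclei. In the 1041 barcodes that had been removed for few genes, whose median depth was 621 UMIs, 88.0% also held an Oxt UMI, and the mean was 3.39 Oxt UMIs per barcode beside 3.19 in PVH-hashtag and 2.90 in ARC-hashtag nuclei. The mean number of Oxt UMIs per nucleus was thus near that of barcodes with few genes, and the source of these UMIs was not tested. Nuclei with 10 or more Oxt UMIs were rarer and unequal in number, 123 (3.29%) in the PVH group and 38 (0.865%) in the ARC group. With 20 or more, the numbers were 16 and 9. For Avp they were 45 (1.20%) and 35 (0.796%) with 10 or more UMIs, and 5 and 13 with 20 or more.

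Agrp, Pomc, Npy and Cartpt, peptides of the arcuate feeding neurons, also had UMIs in many nuclei of both groups, in 52.0% and 53.5% for Agrp and 37.2% and 42.7% for Pomc in the PVH and ARC groups. The barcodes with few genes had an Agrp UMI in 23.8% and a Pomc UMI in 34.7%. Nuclei rich in these transcripts lay mostly with the ARC hashtag. At least 5 Pomc UMIs were found in 126 ARC-hashtag nuclei (2.87%, interval 2.39 to 3.40) and 2 PVH-hashtag nuclei (0.0534%, 0.00647 to 0.193). For Agrp the numbers were 61 and 13 nuclei, for Npy 34 and 2, and for Cartpt 46 and 4. Over the whole list of 11 arcuate peptides and enzymes, 10 had enough UMIs, with a median log2 ratio of -0.63. Among these, 2 were higher with the ARC hashtag and none with the PVH hashtag, beside 1.68% and 2.08% of all genes. Those called were Slc6a3, the dopamine transporter (3.84 against 0.673 CPM, -2.51), and Crabp1, a retinoic acid binding protein (12.0 against 5.39 CPM, -1.15). In the uncalled remainder, Npy had a log2 ratio of -0.63, Tac2 of -0.76, Th of -0.62 and Gal of -0.09.

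Regulators of the arcuate nucleus were higher with the ARC hashtag in 6 of 12 cases with enough UMIs, of 13 listed, and higher with the PVH hashtag in none. Over all genes these shares were 1.68% and 2.08%. The median log2 ratio of the listed regulators was -0.88. Tbx3 (chr5:119670669-119684724), a T-box factor that maintains the identity of arcuate peptide neurons, was at 40.9 CPM with the ARC hashtag (38.3 to 43.7) and 4.61 with the PVH hashtag (3.70 to 5.67), a log2 ratio of -3.15. Isl1, a LIM homeodomain factor needed for Pomc expression, was at 130 and 43.8 CPM (-1.57). Nkx2-1, a factor of the ventral hypothalamus, was at 14.2 and 5.18 CPM (-1.45). Bsx (-1.43), which regulates Agrp and Npy, Prdm12 (-1.41), which acts in Pomc neurons, and Six6 (-1.13), an eye and hypothalamus homeobox factor, were called too. The 4 Dlx genes of forebrain inhibitory lineages lay between log2 ratios of -0.13 and 0.19, with Dlx1 the highest of them. The highest log2 ratio of the whole list was 0.32, toward the PVH hashtag and below 2-fold.

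**Figure D3:**
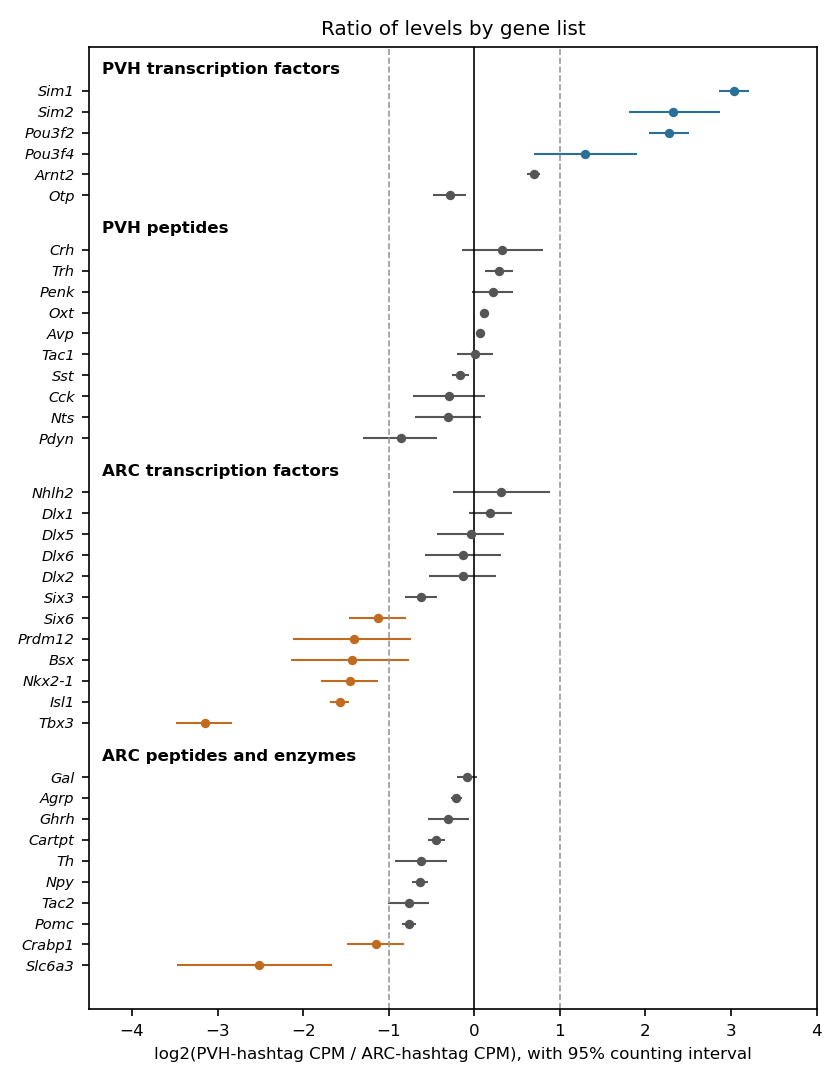
Log2 ratio of PVH-hashtag to ARC-hashtag levels (horizontal) for each listed gene with enough UMIs, in 4 lists, as points with 95% counting intervals. Dashed lines mark 2-fold and the solid line equal levels, and the regulators reach 3.03 for Sim1 and -3.15 for Tbx3 while the PVH peptides lie between -0.86 and 0.32.

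The largest ratios were chosen among genes with at least 200 UMIs, 15 in each direction. The leading genes with the PVH hashtag were Ebf1, Meis2, Sim1, Gm44593 and Uncx. Ebf1, a helix-loop-helix factor of neuronal differentiation, was at 84.4 CPM (80.4 to 88.6) against 9.56 (8.32 to 10.9), a log2 ratio of 3.14. It was found in 9.62% of PVH-hashtag nuclei with 4.53 UMIs per positive nucleus, while Sim1 was found in more nuclei with 2.04 UMIs per positive nucleus. Meis2, a TALE homeobox factor, was at 50.04 against 5.90 CPM (3.09), and Uncx, a paired-type homeobox factor, at 28.2 against 3.89 CPM (2.86). Further down were F13a1, the A subunit of coagulation factor XIII (2.63), Zic4 (2.38) and Zic1 (2.31), zinc finger factors of dorsal and midline territories, Nr2f1, the nuclear receptor COUP-TFI (2.24), and Fign, a microtubule-severing ATPase (2.14, 134.9 against 30.6 CPM). The other genes were Sim2, Pou3f2 and the non-coding or predicted genes Gm14114, A830082K12Rik and Gm29683, the last at a log2 ratio of 2.14.

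With the ARC hashtag the leading gene was Tbx3os1 (chr5:119570130-119671365), the antisense transcript of Tbx3, at 71.7 CPM (68.2 to 75.3) against 4.35 (3.47 to 5.39), a log2 ratio of -4.04. Fli1, an ETS factor, was at 20.4 against 1.502 CPM (-3.76). Rxfp1, the receptor for relaxin, was at 40.5 against 4.45 CPM (-3.18). Nr5a2, a nuclear receptor related to the steroidogenic factor of the ventromedial nucleus, was at 28.7 against 3.68 CPM (-2.96), and Acvr1c, a type I activin receptor, at 43.2 against 6.22 CPM (-2.80). Gpr179, an orphan receptor, had a log2 ratio of -2.45, Corin, the protease that activates natriuretic peptide, of -2.41, and Creb3l1, a membrane-bound bZIP factor, of -2.22. Lepr was 13th of the 15. The remaining genes, 4933406B17Rik, Gm44127, Gm7967, Gm20647 and C430014B12Rik, are predicted or unnamed loci with log2 ratios from -2.56 to -2.14.

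Several of these genes overlap another gene on the opposite strand, and no source used here says whether the counting used strand. If it did not, reads within an overlap could not be told apart. Reads outside the overlap are not affected, and the overlap can be a small part of a gene, as for Tbx3os1. Tbx3os1 overlaps Tbx3 over chr5:119670669-119671365, Zic1 overlaps Zic4 over chr9:91362413-91365810, and Nr2f1 overlaps A830082K12Rik over chr13:78198017-78199757. Corin overlaps Gm20647 on the opposite strand as well. The same holds for Ebf1 and Gm12158, Fli1 and Gm27201, Acvr1c and Gm13544, and C430014B12Rik and Col4a3. F13a1 overlaps both Gm49144 and Gm30489 on the opposite strand. Over the whole annotation, 3209 pairs of genes with enough UMIs overlapped in this way, 135 had at least 1 called gene, and in 54 both were called. All 54 went in the same direction. The gene model of Agrp (chr8:105566698-105637393) overlaps 7 other genes. Gm45855 and Gm5914 lie on its own strand and the others on the opposite strand, so its level is uncertain whether or not strand was used.

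Regional transcription factors, a broad list of 63 factors of forebrain territories, were called only toward the PVH hashtag. Of 48 with enough UMIs, 20 were higher there and none with the ARC hashtag, beside 2.08% and 1.68% of all genes. The median log2 ratio of the list was 0.52. All 3 listed Ebf genes were called, with Ebf2 at a log2 ratio of 2.66 (71 against 13 UMIs) and Ebf3 at 2.06 (35.4 against 8.49 CPM) beside Ebf1. Zic2 was called beside Zic1 and Zic4, at 2.13 (53 against 14 UMIs), and Zic5 had too few UMIs. Zeb2, a zinc finger repressor, had a log2 ratio of 2.04, Nkx2-2 of 1.98, Nr2f2 of 1.88, Lhx9 of 1.83, Pax6 of 1.54, Onecut3 of 1.28, Bcl11a of 1.19, Onecut2 of 1.17 and Foxp2 of 1.14. Lmx1a (42 against 19 UMIs) and Lef1 (155 against 88 UMIs) were called at 1.36 and 1.03. Prox1, at 41.1 CPM with the ARC hashtag and 23.3 with the PVH hashtag, had the lowest ratio of the list, -0.82.

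Some of these factors also mark tissue outside both nuclei. Of 9 listed markers of the thalamus and zona incerta, 6 had enough UMIs. Among these, 3 were called, all toward the PVH hashtag (Meis2, Pax6 and Lef1), beside 2.08% of all genes. The summed level of the list was 474 CPM with the PVH hashtag and 277 with the ARC hashtag. Of 11 listed telencephalic markers, 6 had enough UMIs, with a median log2 ratio of 0.04. Among them, 1 was called with the PVH hashtag and none with the ARC hashtag. The list summed to 116 CPM with the PVH hashtag and 180 with the ARC hashtag. Its cortical members Tbr1, Neurod6 and Slc17a7 had at most 12 UMIs in a group. Of 6 markers of the ventromedial nucleus, 4 had enough UMIs. Bdnf was higher with the PVH hashtag (13.99 against 5.81 CPM, 1.27) and Sox14 with the ARC hashtag (4.91 against 1.97 CPM, -1.32), while Nr5a1 and Fezf1, its defining genes, had 33 and 31 UMIs in all and were not compared. The part of neighbouring tissue in the differences was not tested.

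Of 29 listed genes, mostly receptors for metabolic, stress and sex hormones, 26 had enough UMIs, with a median log2 ratio of -0.36. The list also holds the receptor accessory genes Mrap2 and Ramp3 and the neurotrophin receptor Ntrk2. Among these, 5 were higher with the ARC hashtag and 1 with the PVH hashtag, beside 1.68% and 2.08% of all genes. Besides Lepr, the ARC group had more of the neuropeptide Y receptors Npy2r (44.1 against 16.2 CPM, -1.45) and Npy5r (56.7 against 21.2 CPM, -1.42). Esr1, the estrogen receptor alpha, was at 116 against 44.2 CPM (-1.40). Mc3r, a melanocortin receptor, passed at -1.09 on 37 against 15 UMIs. Trhr, the receptor for thyrotropin-releasing hormone, was the receptor called with the PVH hashtag (16.5 against 8.00 CPM, 1.04). Others leaned to the ARC hashtag without a call, among them Crhr1 (-0.98), Npy1r (-0.91), Pgr (-0.81), Prlr (-0.69), Glp1r (-0.64) and Ghr (-0.64). Insr lay at 0.01 and Ntrk2 at -0.04. Ghsr, the ghrelin receptor, had 33 UMIs with the ARC hashtag and 4 with the PVH hashtag, below the minimum of 50, and Mc4r had 16 and 19.

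Neither main vesicular transporter passed 2-fold. Slc17a6, the glutamate transporter VGLUT2, was at 77.6 CPM with the PVH hashtag and 46.4 with the ARC hashtag (log2 ratio 0.74), and Slc32a1, the vesicular GABA transporter, was at 36.9 and 37.1 CPM (-0.01). Nuclei with a Slc17a6 UMI and no Slc32a1 UMI made up 25.1% of the PVH group (940 nuclei, interval 23.7 to 26.5) and 14.1% of the ARC group (620 nuclei, 13.1 to 15.2). Nuclei with the reverse pattern made up 13.4% (503 nuclei) and 14.3% (627 nuclei). Most nuclei, 58.4% and 69.3%, had a UMI of neither at this depth. Of 14 transmitter genes, 11 had enough UMIs and 2 were called, both toward the ARC hashtag, beside 1.68% of all genes. The 2 called were Chat, the acetylcholine-synthesizing enzyme (7.06 against 1.09 CPM, -2.70), and Slc17a8, the transporter VGLUT3 (60 against 22 UMIs, -1.23). Nos1, which makes nitric oxide, was at 40.4 CPM with the PVH hashtag and 20.6 with the ARC hashtag and just missed 2-fold (0.98).

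The same ratios were then taken within each transporter class, to ask how far a different mix of excitatory and inhibitory nuclei goes along with them. Within Slc32a1 nuclei, 148 of 11250 genes (1.32%) were higher with the PVH hashtag and 158 (1.4%) with the ARC hashtag. Within Slc17a6 nuclei, 179 of 12177 (1.47%) and 178 (1.46%) were. Sim1 had log2 ratios of 2.78 and 2.72 in Slc32a1 and Slc17a6 nuclei, beside 3.03 over all nuclei, and Lepr had -1.86 and -1.73, beside -2.19. Of the 337 genes higher with the PVH hashtag, 105 had enough UMIs in both classes. Of these, 49 passed 2-fold in both, 36 in Slc32a1 nuclei alone, 16 in Slc17a6 nuclei alone and 4 in neither. Of the 272 genes higher with the ARC hashtag, 95 had enough UMIs in both classes, and the numbers were 43, 27, 14 and 11. In each direction, 3 of the genes with enough UMIs in both classes had the opposite sign within a class. The calls were made over all nuclei, which include both classes, so these counts are not independent of the calls.

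Individual regulators were unequal between the classes. Meis2 had a log2 ratio of 3.08 in Slc32a1 nuclei and 1.03 in Slc17a6 nuclei, Nr2f2 of 2.80 and 0.42, and the predicted gene Gm29683 of 3.16 and 0.66. Uncx went the other way, with 1.97 and 2.62, and F13a1 with 1.58 and 2.90. Rxfp1, on the ARC side, had -2.28 and -4.63. Otp took opposite signs. In Slc32a1 nuclei it had 89 UMIs with the ARC hashtag and 26 with the PVH hashtag (log2 ratio -1.47, interval -2.16 to -0.83), and in Slc17a6 nuclei 42 and 159 (1.31, 0.81 to 1.83). Over all nuclei Otp had 550 and 389 UMIs, so most of them lay outside both classes. Differences between the classes were not tested.

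**Figure D4:**
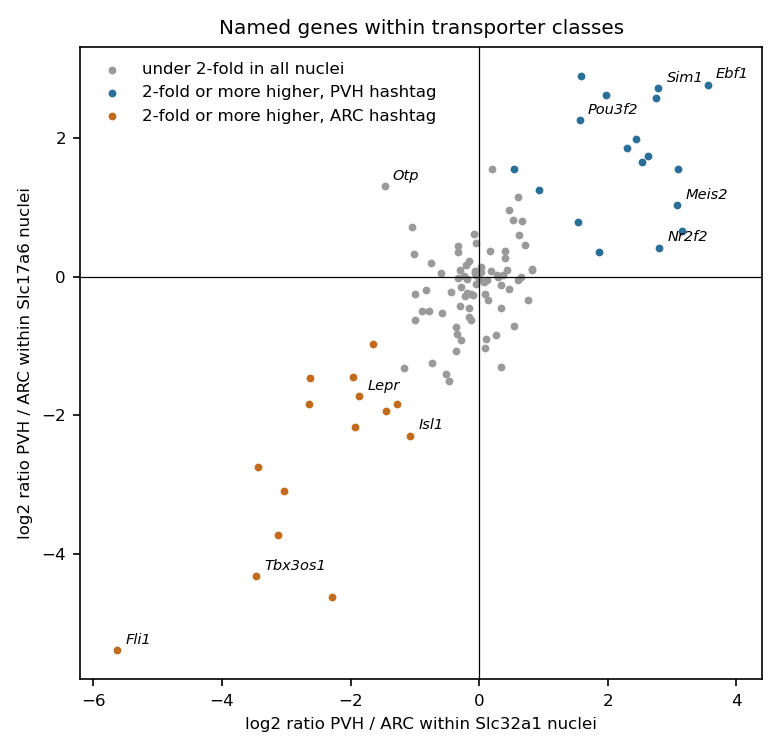
Log2 ratio of PVH-hashtag to ARC-hashtag levels within Slc32a1 nuclei (horizontal) and within Slc17a6 nuclei (vertical) for 112 named genes with enough UMIs in both, each point 1 gene, coloured by its call over all nuclei. Sim1 lies at 2.78 and 2.72, Tbx3os1 at -3.47 and -4.32, and Otp in the upper left at -1.47 and 1.31.

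Some leading genes of the PVH side had unequal levels in nuclei with and without Sim1. The 1028 PVH-hashtag nuclei with a Sim1 UMI were set beside the 2715 without one, at median depths of 5520.5 and 4595 UMIs. Pou3f2 was at 84.5 CPM with Sim1 and 20.6 without, Ebf3 at 69.9 and 19.5, Uncx at 57.9 and 14.5, F13a1 at 64.0 and 18.9, Fign at 242 and 85.7, Ebf1 at 120 and 68.1, and Otp at 39.5 and 11.2. Slc17a6 was also higher in nuclei with Sim1, at 114 against 60.9 CPM. The opposite held for Meis2, at 7.71 CPM with Sim1 and 69.6 without, Nr2f2 at 22.5 and 64.5, Gm29683 at 14.4 and 46.6, and Slc32a1 at 21.5 and 44.1. Others were nearer to equal, with Zic4 at 20.3 and 19.8, Nr2f1 at 20.2 and 20.8, A830082K12Rik at 102 and 83.3 and Zic1 at 16.9 and 25.2. Of the 966 Meis2 UMIs of the PVH group, 919 were in nuclei without a Sim1 UMI. In the ARC group, 166 nuclei had a Sim1 UMI. Pou3f2 was at 88.0 CPM in them against 4.46 in the remaining 4229, Ebf3 at 123 against 2.77, and Tbx3 at 6.55 (7 UMIs) against 42.6.

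Levels changed by steps along the hashtag ratio, and the nuclei between the thresholds had intermediate levels. HTODemux at a quantile of 0.8 called 525 (25.8%) of these nuclei doublets of both hashtags and 1119 (55.1%) negative for both. The part of such nuclei in the intermediate levels was not tested. Just inside the PVH threshold, in 1620 nuclei with ratios of 0.4 to 0.5, Sim1 was at 99.4 CPM and Tbx3 at 5.02. In the nuclei left out of both groups, Sim1 was at 87.0 CPM for ratios of 0.5 to 0.6, 58.6 for 0.6 to 0.7 and 41.7 for 0.7 to 0.8, and Tbx3 at 7.01, 17.0 and 28.1. Just inside the ARC threshold, in 497 nuclei with ratios of 0.8 to 0.9, Sim1 was at 22.3 CPM, above the 13.3 of the whole ARC group, and Tbx3 at 27.8. Beyond a log2 ratio of 0 the levels flattened, with Sim1 between 9.20 and 12.2 CPM and Lepr between 41.7 and 49.6 in the 3 highest bins.

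**Figure D5:**
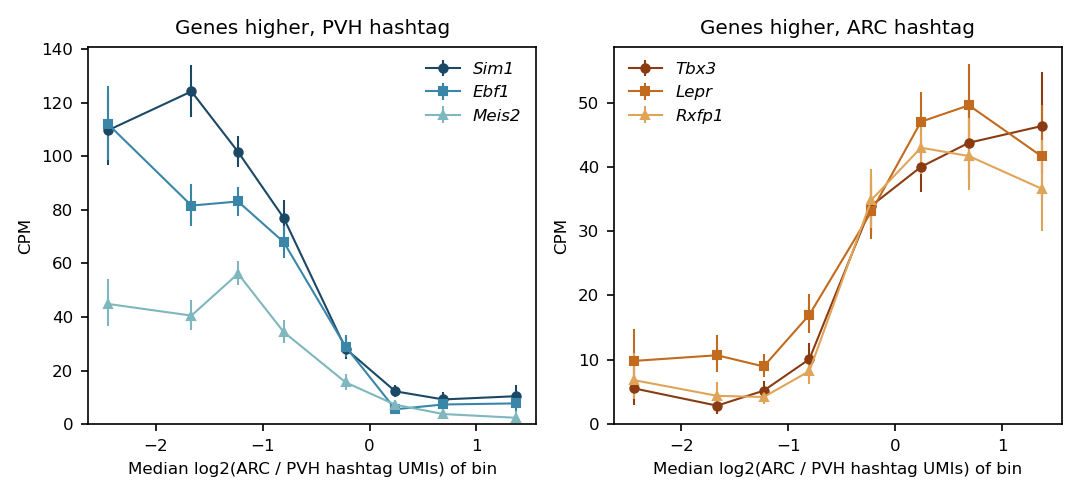
Level (CPM, vertical) of 3 genes higher with the PVH hashtag (left) and 3 higher with the ARC hashtag (right) in 8 bins of nuclei ordered by the log2 ratio of ARC to PVH hashtag UMIs (horizontal, median of each bin), with 95% Poisson intervals. Sim1 is at 110 CPM in the first bin, 124 in the second and 10.4 in the last. Tbx3 is at 5.55, 2.87 and 46.3 CPM in the same bins.

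Pan-neuronal genes did not separate the groups. All 7 listed had enough UMIs and none was called, and their median log2 ratio was 0.00. Snap25, a synaptic SNARE protein, was at 687 CPM with the PVH hashtag and 696 with the ARC hashtag, although the nuclear RNA Meg3 was at 10623 and 6654 CPM (0.67). Glial and vascular transcripts were low. Of 9 markers of astrocytes and tanycytes, 3 had enough UMIs, summing to 61.6 CPM for the whole list with the ARC hashtag and 37.1 with the PVH hashtag, and Slc7a10 was called on 36 against 15 UMIs. Of 9 oligodendrocyte markers, 8 had enough, the list summed to 119 and 106 CPM, and Pdgfra was called on 67 against 10 UMIs. Of 8 microglial and vascular markers, 3 had enough and none was called, with Cldn5 at 0 in both groups. Of 6 pituitary markers, 3 had enough and none was called, with Gh and Prl at 0. Nuclei with 3 or more UMIs across the astrocyte, oligodendrocyte and microglial or vascular lists formed 14.4% and 10.5% of the ARC and PVH groups. Without them the log2 ratio of Pdgfra was -0.33. Pdgfra is itself on these lists, so leaving out such nuclei removes Pdgfra-rich nuclei by design. Of 8 immediate early genes, 5 had enough UMIs and none was called, from Nr4a1 at 0.04 to Egr1 at 0.77. Of 5 sex-linked genes, the 4 Y-linked ones lay between -0.19 and -0.02 and Xist had 8 and 6 UMIs.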

How the data were processed

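The authors deposited raw UMI counts for each gene in each barcode, from Cell Ranger (5.0 in the submitters' processing notes, 4.0.0 in the matrix header) on mm10, for barcodes called as cells, with genes and both hashtags in 1 matrix. No later filter or normalization had been applied. The counts were filtered by the limits of the study, nuclei were split by the ratio of their hashtag UMIs, and UMIs were summed per group in Python 3.11.15 (numpy 2.4.6, scipy 1.17.1, pandas 2.3.3). Levels have exact Poisson intervals, shares exact binomial (Clopper-Pearson) intervals and ratios intervals from the exact binomial split of a gene's UMIs between the groups. The ratio step was tested on simulated data. HTODemux was run in R 4.3.3 with Seurat 5.3.0 as an alternative grouping. The grouping by ratio removed no doublets. HTODemux at a quantile of 0.8 called 253 nuclei (5.76%) of the ARC group and 166 (4.43%) of the PVH group as doublets of both hashtags, and no caller was run for doublets within a hashtag.

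The groups, markers and gene lists were chosen with earlier results of these data known. Named genes are the called members of each list with the first uncalled ones, and the 15 largest ratios each way among genes with at least 200 UMIs. Members named with values for other reasons (among them Ghsr, Nos1, Meg3, Prox1, the opposite-strand partners and the counts of nuclei rich in a peptide) were chosen after their values were seen. Of 32285 gene identifiers, 32158 were found in GENCODE M21 (GRCm38), from which positions were taken. No barcode occurred more than once. The barcode sequences of the hashtags were not used here. Values of a listed gene that is withheld are not reported here.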

Additional observations from a re-analysis of the deposited data

Results flagged for a closer look

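Otp was flagged because its difference between the hashtags had opposite signs in the transporter classes. Its log2 ratio was -1.47 within Slc32a1 nuclei and 1.31 within Slc17a6 nuclei, and with 1 library the difference between the classes was not tested. Among 11205 genes with enough UMIs in both classes, 3 passed 2-fold in opposite directions. The other two, named after their values were seen, were Rxfp2, a relaxin-family receptor (-2.45 and 1.65), and 9630013A20Rik (1.41 and -1.61).

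The 2032 nuclei between the hashtag thresholds were flagged as a signal outside the comparison. HTODemux at a quantile of 0.8 called 25.8% of these nuclei doublets of both hashtags and 55.1% negative for both. Sim1 was at 68.8 CPM and Lepr at 20.1 CPM in them, both between the levels of the groups. Pomc was at 153 CPM, also between the groups, and Agrp at 186 CPM, above the 177 of the ARC group.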

How the results depend on the processing

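No paired analysis was possible because the groups are nuclei of 1 pooled library and no result comes from a test. Against 337 genes higher with the PVH hashtag and 272 with the ARC hashtag, a limit of 1.5-fold gave 873 and 825 and one of 3-fold 113 and 96. At least 20 UMIs per gene gave 580 and 459 of 18413 genes. At least 200 gave 152 and 130 of 12630, and no filter gave 1537 and 1154 of 22833, beside 16222 genes in the main setting. Fewer genes had enough UMIs in some settings. Thinning to 1000 UMIs per nucleus gave 148 and 147 of 12028 genes. Slc32a1 nuclei alone gave 148 and 158 of 11250, and Slc17a6 nuclei alone 179 and 178 of 12177. Stricter hashtag thresholds (ratios of 1.5 and 0.25) left 1302 ARC and 445 PVH nuclei. They gave 197 genes for PVH and 259 for ARC, of 12508 with enough UMIs. HTODemux at a quantile of 0.99 left 1229 and 407 nuclei and gave 196 and 247, of 12707. More genes were thus higher with the ARC hashtag in both, the reverse of the order above, and the cause was not tested. Scaling to the median gene shifted log2 ratios by 0.04 and gave 368 and 247.

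Sim1 and Lepr kept their direction and stayed past 2-fold under every alternative run. The log2 ratio of Sim1 was 3.41 with stricter thresholds, 3.36 with HTODemux at 0.8, 3.26 at 0.99, 3.26 thinned, 2.78 in Slc32a1 nuclei and 2.72 in Slc17a6 nuclei, and that of Lepr was -1.86 and -1.73 in the classes. Pomc passed 2-fold with stricter thresholds (-1.41), HTODemux at 0.99 (-1.125) and in Slc17a6 nuclei (-1.07). It was -0.86 with HTODemux at 0.8, -0.64 with every nucleus weighted alike, -0.47 thinned and -0.36 in Slc32a1 nuclei. Agrp was -0.71 with stricter thresholds, -0.49 with HTODemux at 0.99, -0.32 in Slc32a1 nuclei and -0.020 in Slc17a6 nuclei. The causes of these shifts were not tested.

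Of 62 other named genes, 57 did not reverse under the 14 alternatives that recompute them, with no value for Slc6a3 within Slc17a6 nuclei or Slc7a10 within Slc32a1 nuclei. Those that reversed had few UMIs. Pdgfra was at 1.06 with stricter thresholds and 1.11 with HTODemux at 0.99, where Lmx1a was at -0.95, Mc3r at 0.049 and Slc7a10 at 0.79. Slc7a10 was at 1.19 in Slc17a6 nuclei and Lhx9 at -0.70 in Slc32a1 nuclei. Leaving out the top 5% of nuclei by hashtag UMIs and leaving out the shallowest nuclei by a minimum of UMIs were added after the data were seen and reversed none. With 1 library, no alternative measures the spread between animals.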

Other observations

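Among ARC-hashtag nuclei, 742 had a Tbx3 UMI and 3653 had none. In the nuclei with Tbx3, Tbx3os1 was at 111 CPM against 62.9 without, and Pomc at 223 against 144. Lepr was at 61.1 against 40.5 and Rxfp1 at 52.6 against 37.7. Agrp was at 189 and 174 CPM. Sim1 was at 3.65 CPM with Tbx3 and 15.4 without, and Ebf1 at 4.14 and 10.8.

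The few-gene barcodes held peptide transcripts at higher CPM than either group, with Oxt at 5080 CPM, Avp at 2249, Npy at 706, Pomc at 686 and Agrp at 436. Sim1, at 37.4 CPM in them, lay between the groups, and Tbx3, at 46.0 CPM, was near the level of the ARC group. The part of free RNA in the levels of the groups was not tested.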
